A study of Mus musculus with 6 samples.

Results

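Ercc5, Xpc, Ddb2, Polk, Polh and Rrm2b are DNA repair genes linked to the tumour suppressor p53. They were read out by total RNA sequencing of mouse embryonic stem cells whose alleles of Ezh2, the catalytic subunit gene of Polycomb repressive complex 2, are floxed. The 6 genes were picked by symbol from 22933 genes in the deposited table for their roles in excision repair, lesion bypass and nucleotide supply. They were picked with results of the same comparison known, so their differences are given below as a description, and no test of them is offered as support. All 6 symbols matched a single Ensembl gene of the table.

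The tamoxifen group (n = 3 libraries) is Ezh2 fl/fl cells given 4-hydroxytamoxifen at 800 nM for 96 h and labelled Ezh2 KO. Their RNA was taken at day 4. The untreated group (n = 3 libraries) is Ezh2 fl/fl cells given no tamoxifen and labelled Ezh2 wild type. Cells of both groups grew on gelatin in serum-containing medium with leukaemia inhibitory factor. The recombinase, the number of clones and whether replicates were separate cultures are not given in the sources used here, so the errors measure the spread between these libraries, which may be technical. Only the tamoxifen group received the drug, so effects of the drug and of the deletion cannot be told apart. In such bulk samples, fewer cells of a type and less RNA per cell cannot be told apart either.

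Nucleotide excision repair removes bulky lesions such as those made by ultraviolet light. DDB2 and XPC find the lesion, the helix is opened around it, and nucleases that include XPG, the product of Ercc5, cut the damaged strand. Lesions that remain during replication can be copied by the Y-family DNA polymerases eta (Polh) and kappa (Polk), and the gaps are filled from deoxynucleotides made by ribonucleotide reductase, of which Rrm2b encodes a damage-inducible small subunit. p53 is known, mostly from human cells, to raise transcription of several of these genes after damage.

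The genes lie on 6 chromosomes, given here on GRCm38 from GENCODE vM21. Ercc5 (ENSMUSG00000026048) lies on chromosome 1 from 44147744 to 44181260 on the plus strand. The other 5 are on minus strands: Xpc (ENSMUSG00000030094) on chromosome 6 from 91489305 to 91515888, Ddb2 (ENSMUSG00000002109) on chromosome 2 from 91211572 to 91236982, and Polk (ENSMUSG00000021668) on chromosome 13 from 96480690 to 96542579. Polh (ENSMUSG00000023953) lies on chromosome 17 from 46171355 to 46202645 and Rrm2b (ENSMUSG00000022292) on chromosome 15 from 37923952 to 37961318. All are protein-coding genes, with 2736 bp (Ddb2) to 9134 bp (Rrm2b) of merged exons.

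Promoter windows from 250 bases before to 50 after a RefSeq start on GRCm38.p6 were found for 3 of the 6 genes, Ercc5, Polk and Polh. They are shown because Ercc5 and Polk were the genes that were higher after tamoxifen, while Polh, the other Y-family polymerase gene, was not. The windows are chr1:44147494-44147793 (plus strand) for Ercc5, chr13:96542530-96542829 (minus strand) for the upstream start of Polk, and chr17:46202592-46202891 (minus strand) for Polh. Capitals mark matches, on either strand, to the CCAAT box (CCAAT), the GC box (GGGCGG), a YY1 core (AAGATGG) and an NRF1 core (GCATGC).
Ercc5 window: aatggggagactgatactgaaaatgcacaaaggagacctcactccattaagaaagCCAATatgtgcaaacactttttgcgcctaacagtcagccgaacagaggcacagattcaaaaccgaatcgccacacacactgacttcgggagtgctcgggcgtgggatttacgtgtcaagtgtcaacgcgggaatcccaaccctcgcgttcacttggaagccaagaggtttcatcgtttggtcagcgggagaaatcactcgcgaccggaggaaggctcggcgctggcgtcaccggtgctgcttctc
Polk window: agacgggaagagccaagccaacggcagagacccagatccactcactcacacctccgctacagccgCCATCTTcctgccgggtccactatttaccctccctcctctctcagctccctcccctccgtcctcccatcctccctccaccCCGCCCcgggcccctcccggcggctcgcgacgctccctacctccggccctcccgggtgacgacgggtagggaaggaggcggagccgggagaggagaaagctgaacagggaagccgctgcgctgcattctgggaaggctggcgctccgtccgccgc
Polh window: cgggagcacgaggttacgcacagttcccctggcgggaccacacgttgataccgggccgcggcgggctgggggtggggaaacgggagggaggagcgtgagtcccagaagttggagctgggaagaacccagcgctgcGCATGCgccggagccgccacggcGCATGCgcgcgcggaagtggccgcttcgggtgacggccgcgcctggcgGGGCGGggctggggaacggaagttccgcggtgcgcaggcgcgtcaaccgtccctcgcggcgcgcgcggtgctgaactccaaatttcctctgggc

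Ercc5 held a CCAAT box beginning 195 bases before the start, a motif present in 37.4% of all 32851 mouse windows. In the Polk window a YY1 core began 185 bases before the start (6.34% of all windows) and a GC box 105 bases before it (35.7%). The Polh window held the NRF1 core at 2 places, beginning 115 and 92 bases before the start (7.93% of all windows hold it), and a GC box at 44 bases before it. An ETS core (CCGGAAG, 8.86% of all windows) and a TATA box (TATAAA, 13.6%) matched none of the 3 windows. The decamer of p53 response elements, found in 8.36% of all windows, matched none of them either. It matched once in a second Polk window at a downstream start, chr13:96519138-96519437 (minus strand), as GAACTAGCCT beginning 231 bases before that start. GC content was 53.3% for Ercc5, 68.7% for Polk and 72% for Polh, against a median of 52.7% over all windows. A match or its absence is a description of these letters only. The motifs other than the p53 decamer were chosen after these sequences were seen.

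Each deposited value is a normalized signal made by the authors, from which whole reads could be recovered by solving its arithmetic. These are called recovered reads, and reading them as the gene's read count is an inference from the numbers. Recovered reads totalled 3849377, 2334548 and 5110226 in tamoxifen replicates 1 to 3 and 3855374, 5689664 and 2678332 in untreated replicates 1 to 3. RPM below means recovered reads scaled to a library total of 1000000, and RPKM is RPM per kilobase of merged exons. All 36 values of the 6 genes had exactly 1 solution, on 21 to 244 reads per gene and library. Untreated replicate 1 resembled the tamoxifen libraries (mean Pearson r 0.932 across genes) slightly more than its own group (0.921). Without it, the log2 differences were 1.61 for Ercc5, 1.25 for Polk, -0.78 for Rrm2b, -0.64 for Polh, -0.51 for Ddb2 and -0.38 for Xpc. Ezh2 itself had 2258, 2559 and 2609 in the tamoxifen libraries, against 4165, 3620 and 3483 in the untreated libraries. The groups did not overlap and the log2 difference was -0.60 (limma adjusted p 0.157), so its transcript was detected in every library and was not called lower. In RPM it had 72, 123 and 102 in the tamoxifen libraries, against 180, 97.9 and 67.6 in the untreated libraries. The groups overlapped on that scale, with a log2 difference of -0.13 (95% interval -1.01 to 0.74), so the Ezh2 transcript does not by itself check the labels.

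On the deposited values the 6 genes did not move together. Ercc5 and Polk were higher after tamoxifen, by 2.92-fold and 2.41-fold of the means, and the other 4 were lower, at 60.3% (Rrm2b) to 80.8% (Xpc) of the untreated mean. The groups did not overlap for Ercc5 and Polk, higher, and for Rrm2b and Xpc, lower. Such separation was also seen in 18.4% of the 11847 genes with at least 10 recovered reads on average (9.49% higher and 8.89% lower). The median log2 difference was -0.30 over the 6 genes and -0.01 over all genes tested. By limma, a moderated linear model fitted to all these genes, 1 of the 6 (Ercc5) had a Benjamini-Hochberg adjusted p under 0.05, as had 0.127% of all genes (0.11% higher and 0.0169% lower). With library medians made equal, which left its log2 difference (1.53) and SE (0.19) as in the main fit, Ercc5 passed that threshold. It passed in none of the 12 other alternative fits, leaving out any 1 of the 6 libraries included. Nothing is read from these counts, because the same comparison was known when the genes were picked.

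**Figure D1:**
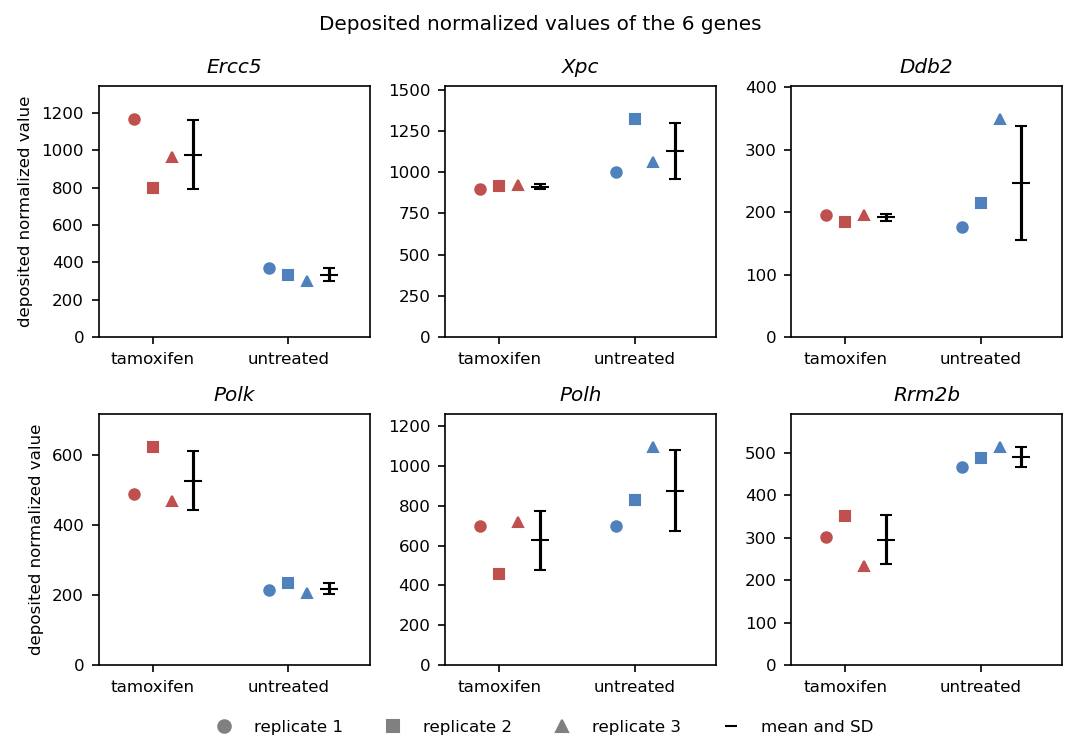
Deposited normalized value (vertical axis, from 0) of each of the 6 genes in the 3 tamoxifen and 3 untreated libraries; symbols mark replicates, and bars give the mean and SD. Ercc5 and Polk are higher in every tamoxifen library, Rrm2b and Xpc are lower in every one, and the groups overlap for Ddb2 and Polh.

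Among the excision repair genes, Ercc5, the gene of a nuclease that cuts beside the lesion, differed the most. Its normalized values were 1168, 798 and 964 in the tamoxifen libraries, against 370.4, 331 and 301 in the untreated libraries. Every tamoxifen value lay far above every untreated value. Means were 977 ± 185 in tamoxifen and 334 ± 34.6 in untreated libraries (SD, n = 3 each), a log2 difference of 1.53 ± 0.19 (SE) with a 95% interval from 1.08 to 1.98 (limma). The gene ranked 150 from the top of 11847 by this difference. Its recovered reads were 155, 112 and 239 in the tamoxifen libraries, against 100, 74 and 24 in the untreated libraries. That is 40.3, 48 and 46.8 RPM in the tamoxifen libraries, against 25.9, 13 and 8.96 RPM in the untreated libraries. The groups stayed apart on this scale too, with untreated replicate 1 nearest to the tamoxifen libraries. Its exact 95% binomial interval, which covers counting error only, ran from 21.1 to 31.5 RPM, below the lowest tamoxifen interval (34.2 to 47.1).

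Xpc, whose product recognizes the distorted helix, had 895, 915 and 925 in the tamoxifen libraries, against 1002, 1324 and 1060 in the untreated libraries. The tamoxifen values lay within a narrow band (coefficient of variation 1.65%), just below the untreated ones (15.2%). Means were 912 ± 15 and 1129 ± 171 (SD, n = 3 each), a log2 difference of -0.30 with a 95% interval from -0.65 to 0.06. On recovered reads the groups overlapped, with 23.1, 32.1 and 31.7 RPM in the tamoxifen libraries against 31.1, 42.9 and 22 in the untreated libraries. Within each library, Ercc5 and Xpc can be compared per kilobase of merged exons without any scaling between libraries. The Ercc5 to Xpc ratio of reads per kilobase was 1.63, 1.4 and 1.38 in the tamoxifen libraries, against 0.781, 0.284 and 0.381 in the untreated libraries. Ercc5 thus had more reads per kilobase than Xpc in every tamoxifen library and fewer in every untreated library.

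Ddb2, the gene of the damage sensor that acts with DDB1, had 195, 185 and 195 in the tamoxifen libraries, against 176, 214 and 349.7 in the untreated libraries. The tamoxifen values fell inside the untreated range. Means were 192 ± 5.8 and 247 ± 91.4 (SD, n = 3 each), and the log2 difference of -0.30 had a 95% interval from -0.98 to 0.38. The value of 349.7 in untreated replicate 3 rested on 22 reads, at 15.9 units of normalized value per read, against 4.15 to 8.81 per read in the other 5 libraries. Without that library the log2 difference was -0.02. Ddb2 had the fewest reads of the 6 genes, 27, 21 and 47 in the tamoxifen libraries against 33, 35 and 22 in the untreated libraries. At 7.01, 9 and 9.2 RPM in the tamoxifen libraries, against 8.56, 6.15 and 8.21 RPM in the untreated libraries, each library's value lay inside the exact 95% binomial interval of untreated replicate 3 (5.15 to 12.4). The log2 difference in RPM was 0.12, with a 95% interval from -0.62 to 0.87 (limma).

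Of the lesion bypass polymerase genes, Polk, whose product copies past bulky adducts on guanine, was the higher one. It had 487, 623 and 468 in the tamoxifen libraries, against 215, 234 and 204 in the untreated libraries. The groups did not overlap, and the untreated values lay close together. Means were 526 ± 84.7 and 218 ± 15.1 (SD, n = 3 each), a log2 difference of 1.26 ± 0.20 (SE) with a 95% interval from 0.80 to 1.72, and it ranked 226 from the top. Recovered reads were 92, 115 and 177 in the tamoxifen libraries, against 83, 71 and 24 in the untreated libraries. They came to 23.9, 49.3 and 34.6 RPM in the tamoxifen libraries, against 21.5, 12.5 and 8.96 RPM in the untreated libraries, so the groups stayed apart but only narrowly. The interval of tamoxifen replicate 1 (19.3 to 29.3) overlapped that of untreated replicate 1 (17.1 to 26.7).

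Polh, whose product copies past thymine dimers, had 701, 458 and 721 in the tamoxifen libraries, against 701, 828 and 1099 in the untreated libraries. The groups overlapped, with tamoxifen replicate 2 lowest and untreated replicate 3 highest. Means were 626 ± 146 and 876 ± 203 (SD, n = 3 each), a log2 difference of -0.49 with a 95% interval from -1.06 to 0.08. On recovered reads the values were 23.4, 27 and 31.5 RPM in the tamoxifen libraries, against 34.8, 28.5 and 23.9 in the untreated libraries. The Polk to Polh ratio of reads per kilobase within a library was 1.1, 1.96 and 1.18 in the tamoxifen libraries, against 0.664, 0.47 and 0.402 in the untreated libraries. Polk therefore had more reads per kilobase than Polh after tamoxifen in every library, and fewer in every untreated one.

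Rrm2b, the nucleotide supply gene, had 302, 351 and 234 in the tamoxifen libraries, against 468, 487 and 515 in the untreated libraries. The groups did not overlap on this scale. Means were 296 ± 58.5 and 490 ± 23.9 (SD, n = 3 each), a log2 difference of -0.75 ± 0.21 (SE) with a 95% interval from -1.22 to -0.27. It ranked 386 from the bottom of 11847. On recovered reads the picture was different, with 14, 26.6 and 16 RPM in the tamoxifen libraries against 31.6, 17.6 and 13.4 in the untreated libraries. Here the groups overlapped and the log2 difference was -0.10, with a 95% interval from -0.90 to 0.70. The normalized value per read was 5.59, 5.66 and 2.86 in the tamoxifen libraries, against 3.83, 4.87 and 14.3 in the untreated libraries. Untreated replicate 3, with 36 reads, carried the highest value per read.

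The same check was made for all 6 genes. With RPM the median of all genes moved to 0.24, and the log2 differences were 1.56 for Ercc5, 1.29 for Polk, -0.08 for Polh, -0.10 for Xpc and 0.12 for Ddb2. With library medians of the reads made equal, the median of all genes was -0.06. The differences were then 1.27 for Ercc5, 1.0 for Polk, -0.40 for Rrm2b, -0.40 for Xpc, -0.38 for Polh and -0.17 for Ddb2. Ercc5 and Polk were higher under each of these scalings, and their 95% intervals on reads with equal medians ran from 0.75 to 1.78 and from 0.52 to 1.48. Of the other 4, Ddb2 changed sign in RPM.

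**Figure D2:**
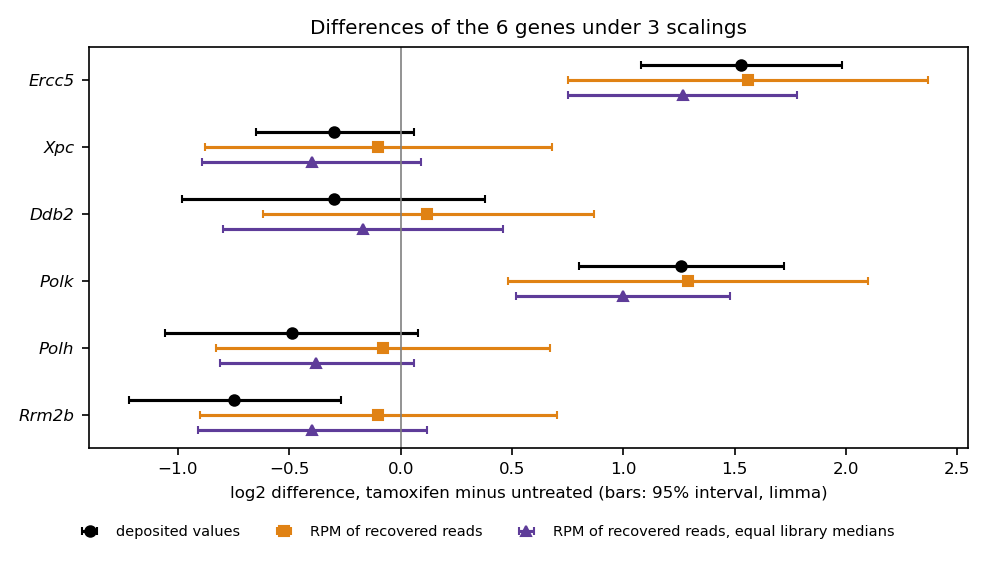
Log2 difference, tamoxifen minus untreated (horizontal axis), of the 6 genes on deposited values (circles), RPM of recovered reads (squares) and RPM with equal library medians (triangles); bars are 95% intervals from limma. Ercc5 and Polk stay between 1.0 and 1.56, while the other 4 lie between -0.75 and 0.12.

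Set per length, as RPKM of recovered reads, all 6 genes were expressed at modest and similar levels. In the tamoxifen libraries Ercc5 stood highest at 7.67 ± 0.707, followed by Polk at 6.47 ± 2.29 and Xpc at 5.28 ± 0.925 (SD, n = 3). Polh stood at 4.59 ± 0.684, Ddb2 at 3.07 ± 0.441 and Rrm2b at 2.07 ± 0.737. In the untreated libraries Xpc stood highest at 5.83 ± 1.9 and Polh next at 4.88 ± 0.916. Ddb2 (2.79 ± 0.476), Ercc5 (2.72 ± 1.51), Polk (2.58 ± 1.17) and Rrm2b (2.29 ± 1.04) followed, each within its SD of the next. In neither group did a gene differ from the next in order by more than the sum of their SDs, except for Polh and Ddb2. Their levels were 4.59 ± 0.684 and 3.07 ± 0.441 after tamoxifen and 4.88 ± 0.916 and 2.79 ± 0.476 in untreated cells. Ercc5 and Polk, at the top after tamoxifen, were thus among the 4 lowest in untreated cells.

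**Figure D3:**
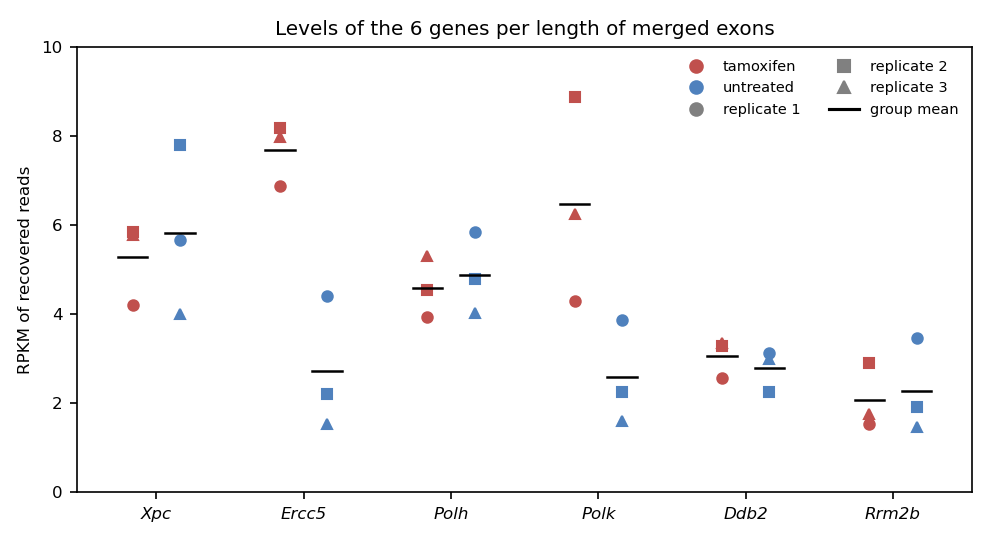
RPKM of recovered reads, per length of merged exons (vertical axis, from 0) for each gene, ordered by the mean of all 6 libraries; symbols mark replicates and lines mark group means. Ercc5 and Polk average 7.67 and 6.47 in tamoxifen libraries and 2.72 and 2.58 in untreated libraries, while the other 4 genes have overlapping groups.

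Several of the genes share ground with a neighbour, which matters because the counting rule and strand setting are not given in the sources used here. Ddb2 overlaps Acp2, a lysosomal phosphatase gene on the opposite strand, by 652 bp of exons, so reads of the pair may not be separable. Acp2 had 613, 505 and 545 in the tamoxifen libraries, against 662, 574 and 612 in the untreated libraries. Rrm2b shares 734 bp of exons with the antisense gene Gm49085, which was not analysed here. Polk, Xpc and Polh each start next to a gene on the opposite strand, Col4a3bp at 38 bp, Lsm3 at 39 bp and Xpo5 at 136 bp. Col4a3bp, the ceramide transfer protein gene that shares its start region with Polk, had 477, 565 and 623 in the tamoxifen libraries, against 633, 643 and 622 in the untreated libraries. Its log2 difference was -0.20 (95% interval -0.58 to 0.19), while that of Polk was 1.26. Xpo5, a nuclear export gene, stood at -0.03 beside Polh, and Lsm3, an RNA-binding protein gene, at 0.04 beside Xpc. Tmem43, 841 bp from the other end of Xpc on the opposite strand, stood at 0.69 (95% interval 0.21 to 1.17, limma adjusted p 0.264). It was higher without overlap, as were 9.49% of all genes tested.

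Across the 6 libraries, Ercc5 and Polk followed each other on deposited values (Pearson r 0.92) and in RPM (0.91). Ercc5 and Rrm2b had r -0.92 on deposited values and 0.19 in RPM. These are descriptions over 6 libraries that share the 2 groups, their depth and their normalization. The genes most like each of the 6 were sought by Pearson r of log2 values among 7935 genes with at least 50 reads on average. For Ercc5 they were Mettl23 (0.993) and the p53 target Perp (0.992), and for Polk they were Mfsd1 (0.996) and Clu (0.992). Rrm2b was most like Cwc25 (0.989) and Osgep (0.982), and Xpc most like Nup155 (0.994) and Rhot1 (0.993). Ddb2 was most like Tubgcp3 (0.995) and ENSMUSG00000064168 (0.993), and Polh most like Rnf214 (0.987) and Rpl38 (0.984). With so few libraries such values are common, and 79 (Rrm2b) to 198 (Ercc5) genes exceeded 0.9.

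The wider repair machinery was tested as 96 other repair genes from 6 lists, whose log2 differences ran from -0.84 to 0.80. Limma called 0 of them at an adjusted p under 0.05, against 0.127% of all genes. An unadjusted p under 0.05 was held by 11 (11.5%), near the 11.9% of all genes tested. Without overlap between the groups, 17 of the 96 were lower and 3 higher, against 8.89% and 9.49% of all genes tested. All 96 lay below Polk in log2 difference, as did 98.1% of all genes tested, and Polk was picked with its value known. In sign 32 were higher and 64 lower (66.7% lower, against 51.7% of all genes), with a median of -0.13. In RPM 66 were higher and 30 lower (31.2% lower, against 22.5% of all genes), with a median of 0.14 against 0.24 for all genes. The medians of the 6 lists ran from 0.07 to 0.24 in RPM, so the negative list medians below, on deposited values, were positive there. With library medians of the reads made equal they ran from -0.22 to -0.05.

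For nucleotide excision repair, 24 of 24 genes were tested, 9 higher and 15 lower, with a median of -0.01. Gtf2h2, a subunit gene of the helix-opening factor TFIIH, stood at -0.77 (limma adjusted p 0.270). Ercc3, a helicase gene of that factor, stood at 0.37 (limma adjusted p 0.358). Neither of these TFIIH genes passed the threshold.

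Lesion bypass had 13 genes tested, 2 higher and 11 lower, with a median of -0.28. In RPM 9 were higher and 4 lower, with a median of 0.13 against 0.24 for all genes. Rev1, a Y-family gene whose product also recruits other bypass polymerases, was the highest of the 96. It had 3640, 2842 and 2959 in the tamoxifen libraries, against 1947, 1577 and 1887 in the untreated libraries. Its groups did not overlap and its log2 difference was 0.80 (95% interval 0.44 to 1.16, limma adjusted p 0.118). Poli, the remaining Y-family gene, stood at -0.43 (limma adjusted p 0.419) and Hltf, a ubiquitin ligase gene of this pathway, at -0.48 (limma adjusted p 0.319). By value, then, Polk and Rev1 were higher and Polh and Poli lower among the Y-family genes, with none called.

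Deoxynucleotide supply had 12 genes tested, 7 higher and 5 lower, with a median of 0.04 and a range from -0.21 to 0.16. Rrm2, the S-phase small subunit gene that is the paralogue of Rrm2b, had 9595, 9712 and 10082 in the tamoxifen libraries, against 9109, 8311 and 8913 in the untreated libraries. Its log2 difference was 0.16 (limma adjusted p 0.645), with Tyms at -0.21 (limma adjusted p 0.659) and Dut at -0.15 (limma adjusted p 0.765). Rrm2 was the more abundant by far, and per kilobase its reads exceeded those of Rrm2b 51.8, 34.8 and 55.1 times in the tamoxifen libraries, against 24, 41.6 and 37.4 times in the untreated libraries. These ratios overlapped between the groups.

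The 3 repair lists without a member among the 6 held 47 tested genes, of which limma called 0, against 0.127% of all genes. An unadjusted p under 0.05 was held by 7 of them (14.9%), against 11.9% of all genes. Base excision repair (17 genes) had a median of -0.11, led by Nthl1 (-0.37), Neil1 (-0.31) and Mutyh (-0.28), with limma adjusted p from 0.418 to 0.582. Mismatch repair (8 genes) had a median of -0.22, led by Mlh3 (-0.70, limma adjusted p 0.384). Double-strand break and crosslink repair (22 genes) had a median of -0.29, with 4 higher and 18 lower. An unadjusted p under 0.05 was held by 5 of them (22.7%), against 11.9% of all genes. Without overlap 7 were lower, against 8.89% of all genes. In RPM 13 were higher and 9 lower, with a median of 0.12 against 0.24 for all genes. The leading genes of this list on deposited values were Nbn (-0.84), Brca1 (-0.51) and Rad50 (-0.77), with limma adjusted p from 0.193 to 0.244.

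The list of p53 itself, its damage kinases and its other targets contained called genes. Of 25 tested, 20 were higher and 5 lower, with a median of 0.59, and 6 were called higher by limma against 0.11% of all genes. The called genes were Plk2 (1.79), Perp (2.34), Mdm2 (1.39), Tap1 (1.45), Btg2 (1.26) and Ccng1 (1.37), with limma adjusted p from 0.0112 to 0.0491. The 5 lower genes were the kinase genes Atm (-0.29), Atr (-0.14), Chek1 (-0.27) and Chek2 (-0.48), and the target gene Sesn1 (-0.20). The list was made with these results known and is no independent evidence. With 1 library left out, calls were counted over this list and the repair lists together, not for this list alone. Limma called 3 of those genes without untreated replicate 1 and 2 without untreated replicate 2. It called 0 without untreated replicate 3 or any tamoxifen library. Ercc5 and Polk lay above the median of that list, while Xpc, Ddb2, Polh and Rrm2b lay below it. Trp53, the gene of p53, had 2753, 3512 and 3095 in the tamoxifen libraries, against 2588, 2394 and 3258 in the untreated libraries, and these overlapped.

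**Figure D4:**
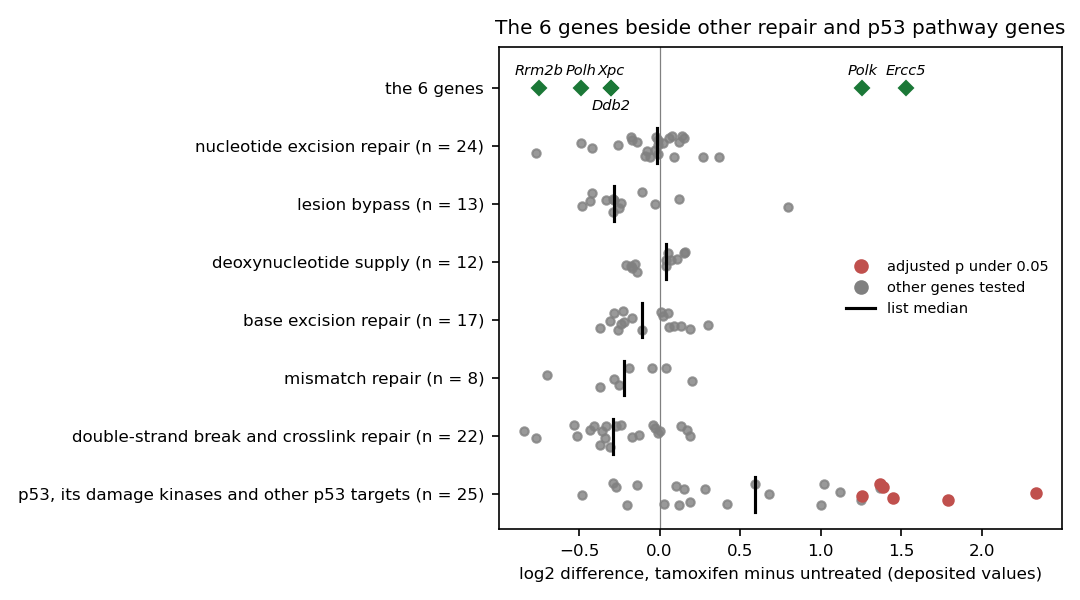
Log2 difference on deposited values, tamoxifen minus untreated (horizontal axis), for the 6 genes (diamonds) and for each tested gene of 7 pathway lists (points, with list medians as lines and called genes in red). Ercc5 and Polk lie to the right of every gene of the 6 repair lists, and called genes occur among the p53 targets.

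Summed values of primitive endoderm and trophoblast markers did not overlap between the groups, while those of fibroblast and stem cell markers overlapped. Primitive endoderm markers summed to 19962 to 22688 in the tamoxifen libraries, against 8682 to 11925 in the untreated libraries, with none at 0 reads throughout. All 7 tested of 9 were higher without overlap, against 9.49% of all genes tested. Limma called 0 of them, and 6 had an unadjusted p under 0.05, against 11.9% of all genes tested. Lamb1 and Col4a1 had the largest values, and Sox17 had 1 read in untreated replicate 3. Of the untested markers, Sox7 was higher without overlap and Foxa2 overlapped. Trophoblast markers summed to 10828 to 12926 in the tamoxifen libraries, against 6273 to 7424 in the untreated libraries. Krt8, Krt18 and Tfap2c made up most of these sums, with means of 2149, 4984 and 3554 in tamoxifen libraries against 1309, 2726 and 2298 in untreated libraries. All 4 tested of 7 were higher by value, with 0 called by limma and 2 at an unadjusted p under 0.05. Of the 4 tested, Krt8 and Krt18 did not overlap between the groups, while Eomes and Tfap2c did. Hand1, too low to be tested, had 6, 8 and 10 reads in the tamoxifen libraries, against 0, 1 and 0 in the untreated libraries. Cdx2 and Elf5 had at most 3 and 1 reads in a library. Fibroblast markers summed to 5695 to 7741 in the tamoxifen libraries, against 3791 to 6737 in the untreated libraries, and these sums overlapped. Vim made up most of them, with 5079 to 6607 in the tamoxifen libraries against 3036 to 6197 in the untreated libraries. All 3 tested of 8 were higher by value and overlapped, with log2 differences of 0.35 (Vim), 0.72 (Col1a2) and 1.81 (Col1a1). Of the others, Postn had 1, 2 and 2 reads in the tamoxifen libraries against 0 in each untreated library. Lum had 0 reads in every library, and Dcn had 1 read at most. Thy1 (mean 422 in tamoxifen against 517 in untreated libraries) and Col3a1 (15.8 against 62.7) were lower by mean and overlapped. The sums of stem cell markers overlapped as well, at 67489 to 72276 in the tamoxifen libraries against 61202 to 89194 in the untreated libraries. Pou5f1 and Sox2 were abundant in all 6. Of the 8 stem cell markers tested, 1 was higher without overlap, Nanog (0.57, limma adjusted p 0.245). Another 1 was lower without overlap, Zfp42 (-0.26, limma adjusted p 0.499). Among all genes tested these shares were 9.49% and 8.89%. The part of these other cell types in the levels of Ercc5, Polk and the other 4 genes was not tested.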

How the data were processed

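Total RNA was depleted of ribosomal RNA with Ribo-Zero Gold and made into directional Illumina libraries, per the labels' protocols. The deposited table holds a normalized signal per Ensembl gene and library. TopHat2, bedtools, DESeq2 and the build mm9 are named in the submitters' processing notes without versions, and the annotation, strand setting and counting rule are not given in the sources used here. Columns were matched to libraries by genotype and replicate number in their names.

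All 100305 values above 0 had the form C × k × (m + 0.1) / (k + 0.1), with C = 9.73 and whole numbers k and m, and k was taken as the recovered reads. Of these values 98.9% had exactly 1 solution. The largest relative misfit was 5.11e-15. The normalization thus gave each gene and library its own factor, and deposited library totals are nearly equal whatever the depth. Depth limits the precision of each value through its recovered reads, and intervals on reads cover counting error only.

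Limma 3.58.1 (R 4.3.3), with an expression trend, was fitted to the log2 of each deposited value plus a pseudocount of 1, over genes with at least 10 recovered reads on average. Differences are tamoxifen minus untreated on that scale. For low genes they depend on the pseudocount, and a value near 0 can make them large. Sox17, with 0.885 in untreated replicate 3, had a log2 difference of 3.38 on means of 647 and 239. An adjusted p under 0.05 was a call. The script was tested on simulated data. Exact binomial intervals came from scipy 1.17.1. Symbols and coordinates came from GENCODE vM21 (20273 genes matched) and promoter sequences from RefSeq. Levels per length used merged exons, although mapping was to another build.

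The genes, lists and read filter were chosen with earlier results of these data known. Besides the 6 genes, up to 3 genes of smallest p and every called gene of each list are named, and the 2 genes most like each of the 6. A few genes that this rule selects are not reported here. Alternatives changed the pseudocount, the filter, the scaling, the use of recovered reads, the replicate block and the libraries included.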

Additional observations from a re-analysis of the deposited data

How the results depend on the processing

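Ercc5, Polk, Rrm2b, Xpc and Polh kept the sign of their difference in all 13 alternative fits, and Ddb2 in 12 of 13. With 1 library left out the log2 differences ran from 1.39 to 1.67 for Ercc5, 1.13 to 1.34 for Polk, -0.88 to -0.59 for Rrm2b, -0.38 to -0.18 for Xpc, -0.64 to -0.28 for Polh and -0.51 to -0.02 for Ddb2. In RPM of recovered reads the values were -0.10 for Rrm2b, -0.10 for Xpc, 0.12 for Ddb2 and -0.08 for Polh. With library medians of the reads made equal, an alternative chosen after seeing the data, they were 1.27 for Ercc5, 1.0 for Polk and -0.40 for Rrm2b. The cause of these shifts was not tested.

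By limma 15 genes were called, 13 higher and 2 lower, with 1 of the 6 genes and 6 genes of the pathway lists. With a pseudocount of 10 the calls were 5, of which 5 were higher and 0 lower (608 lower genes had an unadjusted p under 0.05), with 0 of the 6. A filter on the mean deposited value, at 10 or more, gave 34 calls, 22 higher and 12 lower, and no filter gave 52, 35 higher and 17 lower, each with 0 of the 6. RPM gave 8 calls, 8 higher and 0 lower, with 0 of the 6 and 3 list genes. Equal medians of the reads gave 5, 5 higher and 0 lower, with 0 of the 6 and 2 list genes. An unadjusted p under 0.05 was held by 2 of the 6 in both fits on reads, by 4 without untreated replicate 1 and by 3 in each other fit, against 6.56% to 16.3% of all genes tested. With 1 library left out, limma gave 0 to 4 calls (954 to 1926 genes at an unadjusted p under 0.05), 0 to 3 higher and 0 to 2 lower, with 0 of the 6 and 0 to 3 list genes. The replicate block gave 0 calls, with 0 higher, 0 lower, 0 of the 6 and 0 list genes (1364 genes at an unadjusted p under 0.05). No pairing by replicate number was seen. Deviations of same-numbered libraries correlated at -0.00084, -0.043 and 0.025, and not every library correlated best with its own number. With so few libraries this cannot show whether the cultures were paired. The 6 genes had 21 to 244 reads per value, and the limma 95% intervals of Xpc, Ddb2 and Polh included 0.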
